A study of Danio rerio with 12 samples.

Results

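The genes described here code for apolipoproteins, serpins, complement components and other plasma proteins, and their transcripts were counted in zebrafish kidney. They were taken by a rule on gene symbols, which was set with earlier results of these data known. The symbols start with apoa, apob, apoc, apoe, serpin, cfb, cfh or c3 to c9, or are fga, fgb, fgg, rbp4, fabp10a, ambp, ahsg1 and f2. Symbols with the same first letters that belong to other families were left out. The rule gave 58 of the 14781 genes in the tables, namely 12 apolipoprotein symbols, 17 complement genes, 21 serpins and 8 other plasma protein genes. A pair of the apolipoprotein symbols are not apolipoproteins. The symbol apoa1bp is an older name of naxe, an enzyme that repairs damaged NAD(P)H, and apoer2 is an older name of lrp8, a lipoprotein receptor. Older names also stand for apoc1 (here apoc1l) and c6.2 (here c6).

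The study asked which kidney genes depend on the transcription factor Cebpd while the heart regenerates. The 12 libraries fall into 4 groups of 3, which are homozygous cebpd knockouts (cebpd KO), their wild types (cebpd WT), homozygous CEN knockouts (CEN KO) and their wild types (CEN WT). What CEN stands for is not in the labels, and the study's publication describes it as an enhancer linked to cebpd. Fish in every group were adult males of the EK strain, 4 to 12 months old. All had lost heart muscle cells through 17 h in 0.5 to 0.7 µM tamoxifen, and whole kidneys were taken on day 7. The ablation transgene is not named in the labels, and no group without heart injury is part of the design. Replicates are numbered in the labels, but nothing says that each came from its own fish, so a p-value here reflects spread between libraries that may be technical.

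Most of these proteins are made by the liver and secreted into blood. Apolipoproteins carry lipids in plasma. Complement proteins mark and perforate microbes, and serpins are mostly protease inhibitors that limit clotting, complement and neutrophil proteases. Many of the genes belong to the acute phase response, in which C/EBP factors are known activators in mammalian liver. In adult zebrafish the kidney contains marrow and interrenal tissue besides its nephrons. Tubules take filtered plasma proteins back up, so transcripts, and not the proteins, are what these libraries report on.

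The libraries held 15793475 to 18104535 counts in genes, so 3 counts corresponded to 0.157 to 0.199 CPM (counts scaled to library size), a floor that covers counting error only. The cebpd transcript, as a check of the labels, was at 10.4, 4.03 and 12.9 CPM in cebpd KO against 316, 466 and 337 CPM in cebpd WT (edgeR quasi-likelihood test, adjusted p = 9.43e-05). It was at 67.8, 72.8 and 77.9 CPM in CEN KO against 294, 333 and 212 CPM in CEN WT, which did not pass the test (adjusted p = 0.106). Of the 58 genes, 51 passed the filter on low counts and were tested. The other 7 were c3b.1 and serpina7 with no count, and apoa4a, apoa4b.1, apoa4b.2, cfhl3 and serpinb1l2 with few. Of those 5, apoa4b.1 reached 9.73 CPM, apoa4b.2 2.32 CPM and cfhl3 1.56 CPM, all in CEN KO replicate 2, and the other pair stayed at or below 0.664 CPM in every library. Genes of a proximal tubule list summed to 6660, 6100 and 6630 CPM in cebpd KO against 7890, 10200 and 6960 CPM in cebpd WT, without overlap. Of its 11 tested genes, 2 had a log2 fold change above 0 there (median -0.21, all genes: 48.6% above 0). The sums were 7030 to 9350 CPM in CEN KO and 6320 to 8370 CPM in CEN WT, which overlapped. What part this has in the plasma protein genes was not tested. Over 14 lists of cell type markers, 1 gene passed the edgeR test in a knockout comparison. It was the ammonia transporter gene rhbg (-1.11 ± 0.18, edgeR adjusted p = 0.0487, lower in cebpd KO). In the difference between the knockout effects, cebpd minus CEN, 1 gene of the proximal tubule list passed (edgeR, adjusted p = 0.0244). Between the wild types, genes of several of these lists passed, among them the proximal tubule, neutrophil and macrophage lists. Levels in CPM are not corrected for gene length and are compared between libraries, not between genes. In bulk tissue, a change in the number of cells of a type and a change in RNA per cell cannot be told apart.

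One library stood apart in these genes. The library CEN KO replicate 2 had the highest level of the 12 libraries for 24 of the 51 genes tested (47.1%), against 7.44% of all genes tested. For 15 of the 51 (29.4%), its level was at least 3-fold above the next library, against 0.262% of all genes tested. Over the 56 genes with a count, those numbers were 27 and 18. Over all genes tested, the largest such 3-fold share was in CEN KO replicate 1 (0.954%), where 0 of the 51 were highest. The 58 genes together took 0.324% of the counts of CEN KO replicate 2, against 0.168 to 0.238% in the other libraries. Medians and counts at an unadjusted p under 0.05 in the comparison of CEN KO with CEN WT are therefore given with and without it. So are most genes of lowest p that involve the CEN knockouts. Counts of genes without overlap, and counts for the comparison of the knockout effects with each other, are given only with it.

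**Figure D1:**
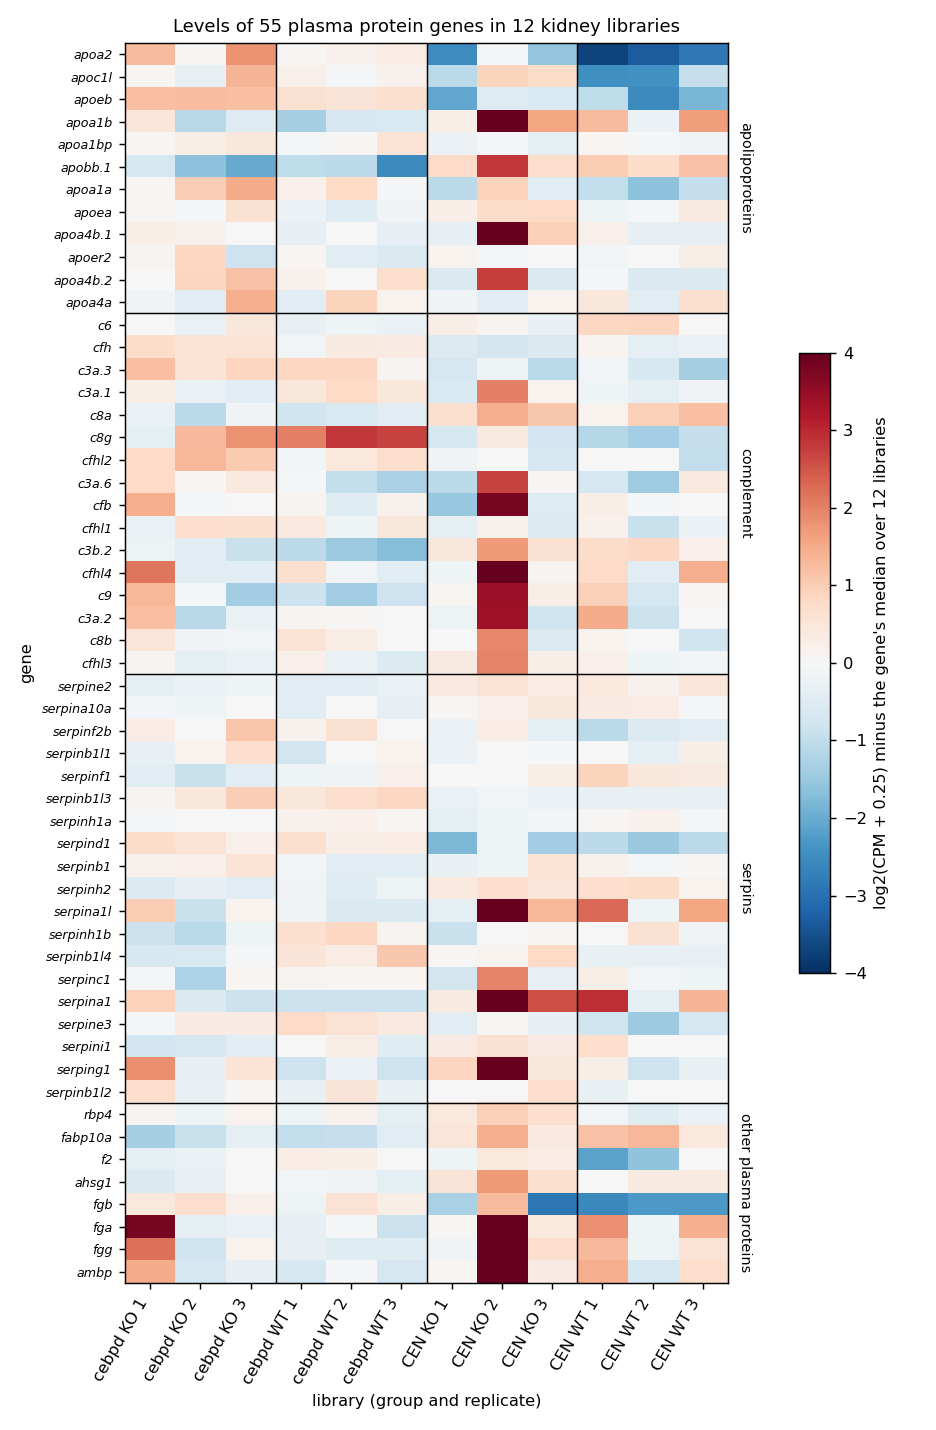
Heat map of 55 of the 56 genes with a count (rows, grouped by family) in the 12 libraries (columns). Colour gives log2(CPM + 0.25) minus the gene's median over the libraries, and the scale stops at 4 in either direction. The column CEN KO 2 holds most of the dark red cells, in 18 genes at least 3-fold above the next library.

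The genes concentrated in CEN KO replicate 2 are mostly known for expression in liver. Fibrinogen, the clot-forming protein, has 3 chains. Its alpha chain gene fga stood at 0.222, 43.4 and 0.364 CPM in CEN KO replicates 1, 2 and 3, against 1.37, 0.157 and 0.961 CPM in CEN WT. The gamma chain gene fgg stood at 0.222, 24.8 and 0.606 CPM in CEN KO against 1.04, 0.209 and 0.509 CPM in CEN WT. In both genes the other CEN KO libraries lay within the CEN WT range. The beta chain gene fgb had 9.04, 54.6 and 2.79 CPM in CEN KO against 3.57, 4.34 and 4.35 CPM in CEN WT. Unlike fga and fgg, fgb was also well above the floor in every cebpd library, at 25.9 to 36.9 CPM in cebpd KO and 19.5 to 33.7 CPM in cebpd WT. The alpha and beta chain genes lie close to each other on chromosome 1 in the RefSeq gene order of the newer assembly GRCz12tu.

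The same library was highest for ambp, the precursor of alpha-1-microglobulin and bikunin, with 0.166, 24.6 and 0.243 CPM in CEN KO against 0.824, 0 and 0.396 CPM in CEN WT. It was highest for apoa1b, a main protein of high-density lipoprotein, with 7.49, 314 and 19.4 CPM in CEN KO against 15.4, 5.28 and 20.4 CPM in CEN WT. The neighbouring serpins serpina1 and serpina1l, relatives of the elastase inhibitor alpha-1-antitrypsin, reached 20.5 and 36.2 CPM there, and the next library, CEN WT replicate 1, had 3.24 and 1.98 CPM. The complement genes cfb (9.49 CPM), c9 (6.83 CPM), cfhl4 (9.9 CPM) and c3a.2 (5.44 CPM) were also highest there, none of them above 1.67 CPM elsewhere. In 8 of these 18 genes the next library was cebpd KO replicate 1, among them fga (6.12 CPM), fgg (2.16 CPM) and serping1 (1.36 CPM).

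Other liver genes were high in that library too. A list of 35 hepatocyte genes that shares no gene with the 58 had 29 in the tables, each with a count in some library. Of these, 16 were highest in CEN KO replicate 2 and 11 were at least 3-fold above the next library there. The heme carrier hpx had 14.1 CPM against at most 1.42 CPM elsewhere, the urate oxidase gene uox had 7.53 against at most 0.452 CPM, and the transferrin gene tfa had 179 against at most 43.9 CPM. The genes pah and agxtb, which kidney also expresses, had medians of 1540 and 1420 CPM over the 12 libraries, and neither was highest in CEN KO replicate 2. The list's sum, to which pah and agxtb gave the most, was 2890 to 4300 CPM in cebpd KO and 4020 to 5350 CPM in cebpd WT. It was 3210 to 4480 CPM in CEN KO and 2770 to 4560 CPM in CEN WT. Of its 21 tested genes, 7 had a log2 fold change above 0 in cebpd KO (median -0.41, all genes: 48.6% above 0). In CEN KO 15 lay above 0 (median 0.22, all genes: 50.6%), or 11 (median 0.05) without CEN KO replicate 2. Of the list, fabp1b.1 was at 0 in every library but CEN KO replicate 3, where it had 1 count.

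Genes of ovary, testis and yolk differed in that library too. The 14 genes of that list found in the tables summed to 12900 CPM in CEN KO replicate 2 and to 372 and 128 CPM in the other CEN KO libraries, against 48.2 to 235 CPM in CEN WT. Those sums were 69.1 to 124 CPM in cebpd KO and 101 to 130 CPM in cebpd WT. The gene vtg1, for a yolk precursor that the liver makes in egg-laying females, had 5340 CPM there and at most 88.1 CPM elsewhere, although the labels give all fish as male. What part these differences have in the results on plasma protein genes was not tested.

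**Figure D2:**
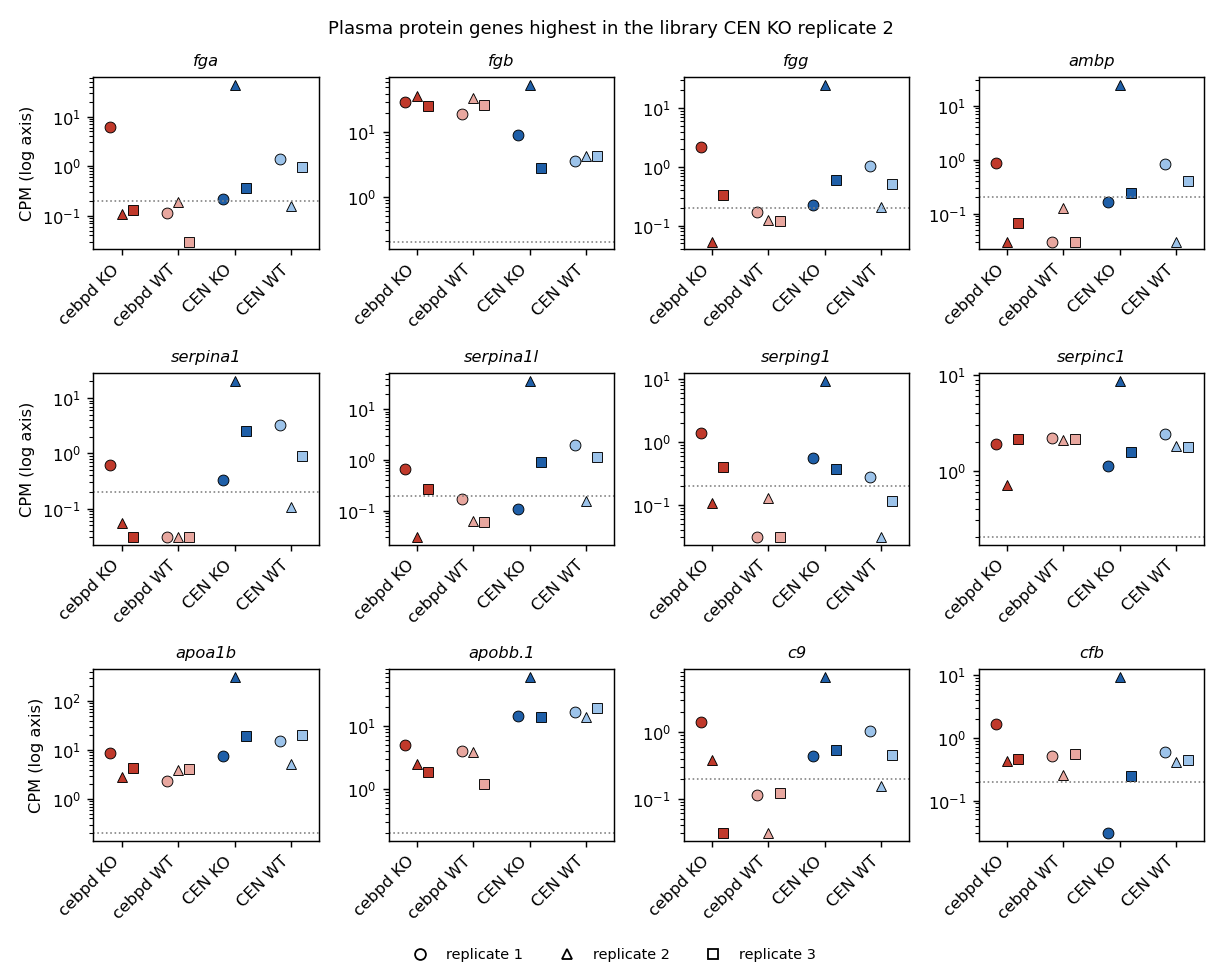
CPM of 12 plasma protein genes in each library on log axes, with a symbol for each replicate. The genes were picked because they were highest in CEN KO replicate 2. Values of 0 are drawn at 0.03 CPM, and the dotted line marks the highest floor of 3 counts, 0.199 CPM. By that choice, the triangle of CEN KO (replicate 2) is the top point in all 12 panels, for example at 43.4 CPM for fga.

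In the comparison of cebpd KO with cebpd WT, none of the 51 genes passed the test (edgeR quasi-likelihood test, adjusted p under 0.05), beside 0.0845% of all genes tested. At an unadjusted p under 0.05 there were 7 of 51 (13.7%), against 13.4% of all genes tested, so the share was near the background. The DESeq2 Wald test called 2, serpinb1l4 and serpinh1b. Knockout and wild-type libraries did not overlap for 15 genes (29.4%, against 16% of all genes), 7 higher in cebpd KO (all genes: 7.8%) and 8 lower (all genes: 8.25%). The 7 were apoea, apoeb, c3a.6, c3b.2, cfh, cfhl2 and serpinb1, and the 8 were c3a.1, c8g, f2, serpinb1l4, serpine3, serpinf1, serpinh1a and serpinh1b. The median log2 fold change was 0.26, against -0.01 over all genes tested, and 35 of the 51 lay above 0 (all genes: 48.6%). Without cebpd KO replicate 1 the median was 0.13.

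All 9 tested apolipoprotein symbols, apoa1bp and apoer2 included, had a log2 fold change above 0 in cebpd KO with all libraries. These ran from 0.03 to 1.04 with a median of 0.62, and none passed. Of the 12 apolipoprotein symbols, 4 were highest of all libraries in cebpd KO replicate 3 (33.3%, against 19.5% of all genes tested). In some alternative settings the sign changed for apoa1bp, apobb.1, apoc1l and apoer2. Their lowest values were -0.06, -0.48, -0.17 and -0.03, and the other symbols stayed above 0. The gene apoeb, for the apolipoprotein E that lipoprotein receptors bind, had 130, 133 and 131 CPM in cebpd KO against 87.3, 80.8 and 88.6 CPM in cebpd WT. Its groups did not overlap, and the log2 fold change was 0.62 ± 0.38 (SE; edgeR, adjusted p = 0.540). Like every SE given here, this one rests on the spread over all libraries fitted, CEN included, not on the cebpd libraries alone. The gene apoa2, for an apolipoprotein of high-density lipoprotein, had 372, 159 and 536 CPM in cebpd KO against 160, 171 and 189 CPM in cebpd WT. One cebpd KO library lay at the wild-type level, and the log2 fold change was 1.04 ± 0.54 (adjusted p = 0.443). For its neighbour apoc1l, the apolipoprotein C-I gene apoc1 under its older name, cebpd KO had 142, 108 and 342 CPM. In cebpd WT it had 153, 125 and 151 CPM, and the groups overlapped.

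Complement genes had a median log2 fold change of 0.33 in cebpd KO, with 12 of 15 above 0. The gene cfh, for factor H, which restrains the alternative pathway, had 50.1, 44.2 and 45.2 CPM in cebpd KO against 28, 38.3 and 37.4 CPM in cebpd WT. The groups did not overlap and differed by 0.43 ± 0.16 on the log2 scale (adjusted p = 0.263). Nearby on chromosome 22, the factor H-like gene cfhl2 had 2.91, 4.41 and 3.58 CPM in cebpd KO against 1.46, 2.22 and 2.8 CPM in cebpd WT (0.75 ± 0.37, adjusted p = 0.414). The factor H-like genes cfhl1 and cfhl4, which lie nearer to cfh in the gene order, overlapped between the groups. A gene for complement C3, on which all pathways converge, c3b.2, had few counts, 6 to 13 per library in cebpd KO and 2 to 6 in cebpd WT. Its level was 0.804, 0.645 and 0.398 CPM in cebpd KO against 0.337, 0.19 and 0.122 CPM in cebpd WT (1.47 ± 0.58, adjusted p = 0.285).

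The membrane attack complex, the pore that complement builds in a target membrane, had subunit genes with values in both directions. The gene for the C8 gamma subunit, c8g, had 0.556, 2.31 and 3.38 CPM in cebpd KO against 3.94, 7.1 and 6.58 CPM in cebpd WT. All cebpd KO libraries lay below all cebpd WT libraries, with a log2 fold change of -1.49 ± 0.54 (adjusted p = 0.240). The alpha subunit gene c8a overlapped between the groups (0.19 ± 0.33), as did c8b (-0.29 ± 0.81) and c6 (0.33 ± 0.24). The level of c6 was 494, 411 and 670 CPM in cebpd KO against 403, 437 and 410 CPM in cebpd WT.

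Serpins divided in both directions, with 9 of 19 log2 fold changes above 0 and a median of -0.09. The lowest p among all 51 genes was that of serpinb1l4, a relative of the intracellular neutrophil protease inhibitor SERPINB1 of mammals. It had 1.42, 1.45 and 2.26 CPM in cebpd KO against 3.49, 2.92 and 5.24 CPM in cebpd WT, without overlap, and a log2 fold change of -1.18 ± 0.32 (edgeR, adjusted p = 0.131; DESeq2 Wald test, 0.0386). Its relative serpinb1 lay the other way, with 16.4, 16.8 and 21.3 CPM in cebpd KO against 13.4, 10.5 and 10.8 CPM in cebpd WT (0.65 ± 0.22, edgeR adjusted p = 0.219). The other tested relatives, serpinb1l1 and serpinb1l3, overlapped between the groups. The neutrophil marker list summed to 6420, 7320 and 7840 CPM in cebpd KO against 3660, 4850 and 4340 CPM in cebpd WT. No gene of it passed the test, while 11 of 12 tested lay above 0 (median 0.65). At an unadjusted p under 0.05 (edgeR) there were 10 of 12, all higher in cebpd KO, against 13.4% of all genes in either direction. Libraries did not overlap for 9 of the 12, all higher in cebpd KO (all genes: 7.8%). The part of this list in the serpin and complement values was not tested.

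The gene serpinh1b, for the collagen chaperone Hsp47, had 1.55, 1.29 and 2.59 CPM in cebpd KO against 4.83, 5.51 and 3.23 CPM in cebpd WT. The groups did not overlap, and the log2 fold change was -1.33 ± 0.38 (edgeR, adjusted p = 0.148; DESeq2 Wald test, 0.0345). Its paralog serpinh1a had 29.8, 30.8 and 30.3 CPM in cebpd KO against 34.6, 35.2 and 31.6 CPM in cebpd WT (-0.16 ± 0.12). The gene serpinf1, for pigment epithelium-derived factor, which inhibits blood vessel growth, had 31.2, 23 and 31.2 CPM in cebpd KO against 38.4, 38.9 and 49.5 CPM in cebpd WT. All cebpd KO libraries were below all cebpd WT libraries (-0.57 ± 0.18, edgeR adjusted p = 0.184). The neuroserpin gene serpini1, at 0.804 to 1.06 CPM in cebpd KO and 1.04 to 1.9 CPM in cebpd WT, overlapped (-0.68 ± 0.34, adjusted p = 0.433). Overlap was also seen for the antithrombin gene serpinc1 (-0.45 ± 0.67).

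The serpin gene serping1, for the C1 inhibitor that blocks the start of the classical pathway, was near the floor in this experiment. It had 22, 2 and 6 counts in cebpd KO against 0, 2 and 0 counts in cebpd WT, and the groups overlapped. The gene fga had 99, 2 and 2 counts in cebpd KO against 2, 3 and 0 counts in cebpd WT, so its difference lay in 1 library. For fgg, cebpd KO had 35, 1 and 5 counts and cebpd WT had 3, 2 and 2, and for ambp cebpd KO had 14, 0 and 1 counts and cebpd WT had 0, 2 and 0. The gene serpina1 had 10, 1 and 0 counts in cebpd KO and none in cebpd WT, and no fold is given for these genes.

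Of the 8 other plasma protein genes, 7 overlapped between cebpd KO and cebpd WT and f2 did not (all genes: 16% without overlap). The retinol carrier gene rbp4 had 207, 170 and 209 CPM in cebpd KO against 166, 216 and 147 CPM in cebpd WT (0.15 ± 0.18). The fish liver-type fatty acid carrier fabp10a had 48.8, 65.7 and 93.7 CPM in cebpd KO against 61.8, 63.9 and 91.7 CPM in cebpd WT (-0.06 ± 0.34). The fetuin gene ahsg1 (-0.08 ± 0.28) and fgb (0.21 ± 0.70) overlapped as well. The prothrombin gene f2 had 84.3, 92 and 110 CPM in cebpd KO against 137, 130 and 112 CPM in cebpd WT, which did not overlap (-0.41 ± 0.42, edgeR adjusted p = 0.747).

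**Figure D3:**
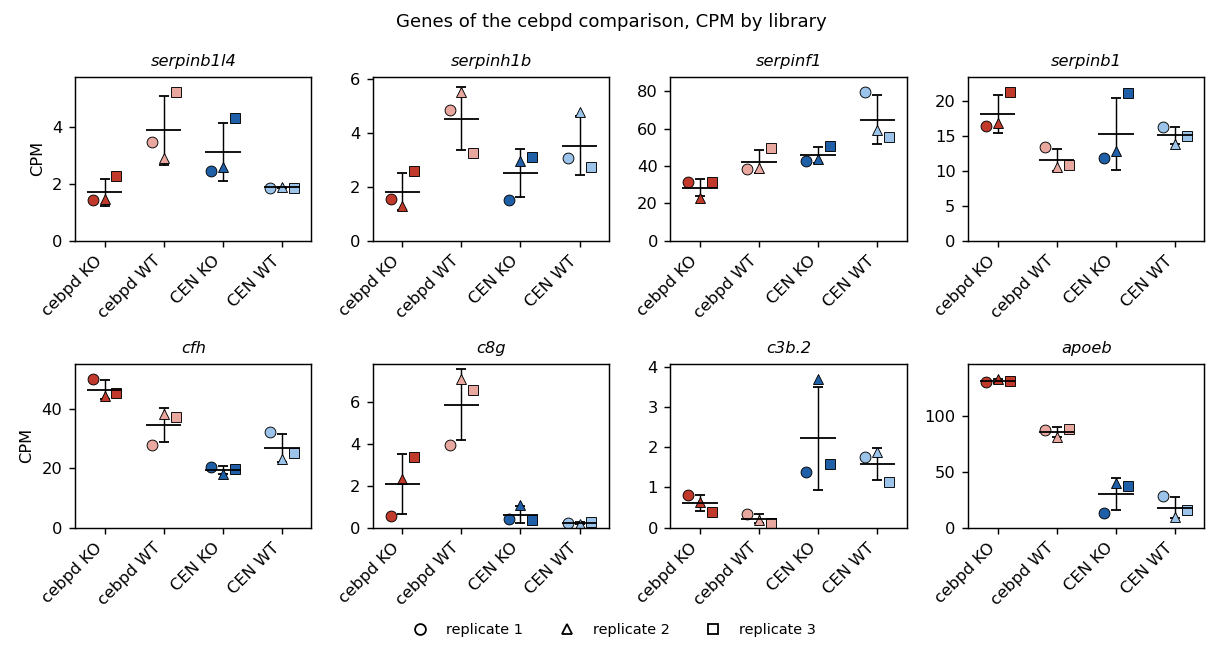
CPM of 8 genes named in the cebpd comparison in each library, with the group mean (line) and SD (bar, n = 3) on axes that start at 0. The cebpd KO points lie below all cebpd WT points for serpinb1l4, serpinh1b, serpinf1 and c8g and above them for serpinb1, cfh, c3b.2 and apoeb.

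In the comparison of CEN KO with CEN WT, none of the 51 genes passed the test (edgeR quasi-likelihood test), beside 0.00845% of all genes tested. At an unadjusted p under 0.05 there were 21 of 51 (41.2%), against 9.86% of all genes tested. Of these, 17 were higher in CEN KO (all genes: 5.99%) and 4 were lower (all genes: 3.88%). The DESeq2 Wald test called 3, rbp4, apoa2 and serping1. Groups did not overlap for 12 genes (23.5%, against 19.4% of all genes), 9 higher in CEN KO (all genes: 9.63%) and 3 lower (all genes: 9.77%). The 9 were ahsg1, apoa2, c8g, rbp4, serpinb1l3, serpinb1l4, serpine3, serpinf2b and serping1, and the 3 were cfh, serpinf1 and serpinh1a. The median log2 fold change was 0.75, against 0.00 over all genes tested, and 40 of 51 lay above 0 (all genes: 50.6%).

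Most of that difference lay in CEN KO replicate 2. Without it the median was -0.10 and 21 of 51 lay above 0. There were then 4 genes higher and 1 lower at an unadjusted p under 0.05 (7.84% and 1.96%, against 5.28% and 2.99% of all genes). With and without that library, the family medians were 1.21 and -0.15 for complement, 1.79 and -0.10 for the other plasma proteins, 0.09 and -0.02 for serpins, and 0.83 and 0.49 for apolipoproteins. The log2 fold change of fgg was 3.85 with the library and -0.51 without it, that of ambp 4.35 and -0.96, that of apoa1b 3.06 and -0.03, and that of fga 4.14 and -1.48.

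**Figure D4:**
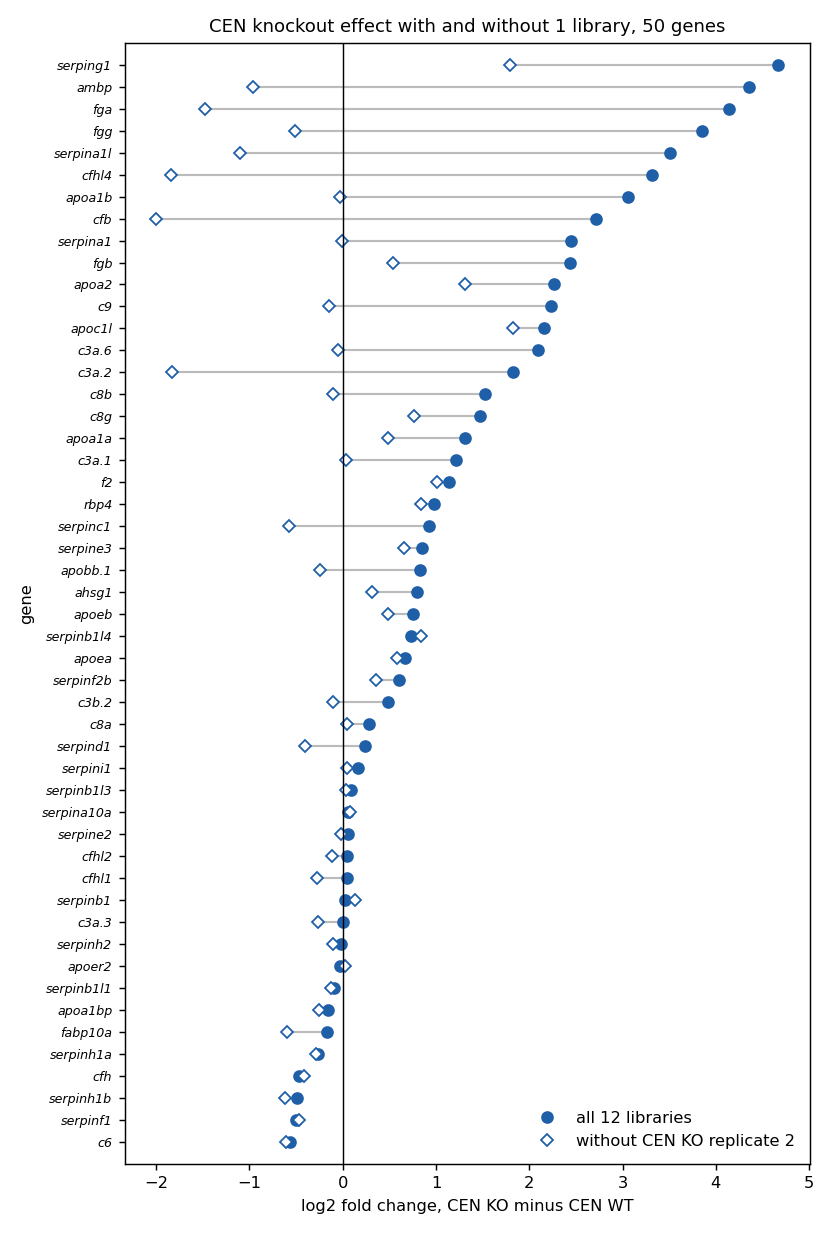
Log2 fold change of CEN KO minus CEN WT for 50 of the 51 genes tested, from the fit with all 12 libraries (filled circles) and from the fit without CEN KO replicate 2 (open diamonds), joined for each gene. Over the 51 genes the median is 0.75 with all libraries and -0.10 without that library, and the longest lines belong to fga, ambp and cfhl4.

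Among all 51 genes, rbp4 had the lowest p in this comparison. The gene codes for the protein that carries retinol in plasma. It had 257, 371 and 308 CPM in CEN KO against 176, 137 and 162 CPM in CEN WT. Every CEN KO library was above every CEN WT library, with a log2 fold change of 0.98 ± 0.18 (edgeR, adjusted p = 0.139; DESeq2 Wald test, 0.000278). Without CEN KO replicate 2 it was 0.84 ± 0.19 (edgeR, adjusted p = 0.178).

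The apolipoprotein genes apoa2 and apoc1l came next among the apolipoproteins. The gene apoa2 had 26.4, 148 and 51.7 CPM in CEN KO against 11.5, 14.9 and 20.7 CPM in CEN WT, without overlap. Its log2 fold change was 2.26 ± 0.56 (edgeR, adjusted p = 0.217; DESeq2 Wald test, 0.0322), and 1.31 ± 0.43 without CEN KO replicate 2 (edgeR, adjusted p = 0.338). For apoc1l the values were 62.4, 248 and 220 CPM in CEN KO against 24, 24.9 and 70.2 CPM in CEN WT, which overlapped in 1 library of each group. The log2 fold change was 2.16 ± 0.57 (adjusted p = 0.236) with all libraries and 1.83 ± 0.61 (adjusted p = 0.339) without CEN KO replicate 2. Their neighbour apoeb had 13.1, 39.7 and 37.1 CPM in CEN KO against 28.2, 9.57 and 15.8 CPM in CEN WT, which overlapped (0.75 ± 0.39, adjusted p = 0.567, and 0.49 ± 0.42 without CEN KO replicate 2).

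For f2, the prothrombin gene, the CEN WT libraries lay far apart. Its level was 98.6, 149 and 135 CPM in CEN KO against 25.2, 36 and 113 CPM in CEN WT, and CEN WT replicate 3 lay within the CEN KO range. The lowest of the 12 libraries were CEN WT replicates 1 and 2, with 459 and 688 counts. The cebpd libraries, KO and WT, had 1364 to 2442 counts. The log2 fold change was 1.14 ± 0.42 (edgeR, adjusted p = 0.385) with all libraries. Without CEN WT replicate 3 it was 2.06 and passed the test (edgeR, adjusted p = 0.0144). The same library held 494 CPM of c6 against 884 and 892 CPM in the other CEN WT libraries, and 162 CPM of fabp10a against 277 and 310 CPM.

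The fetuin gene ahsg1 had 46.5, 107 and 50.3 CPM in CEN KO against 33.2, 42 and 42.1 CPM in CEN WT, without overlap. Its log2 fold change was 0.80 ± 0.28 (adjusted p = 0.339), and 0.31 ± 0.19 without CEN KO replicate 2. That of fgb was 2.44 ± 0.76 (adjusted p = 0.290), and 0.54 ± 0.40 without it. The serping1 counts were 10, 162 and 6 in CEN KO against 5, 0 and 2 in CEN WT. These did not overlap and gave 4.67 ± 1.41 (edgeR, adjusted p = 0.271) with the library and 1.79 ± 1.17 without it.

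For cfh, serpinf1 and serpine3 the values with and without that library were close. The factor H gene cfh had 20.5, 17.9 and 19.8 CPM in CEN KO against 32.1, 23.1 and 25.2 CPM in CEN WT, all lower in CEN KO. The log2 fold change was -0.47 ± 0.16 (adjusted p = 0.337), and -0.41 ± 0.19 without CEN KO replicate 2. The gene serpinf1 had 42.8, 43.7 and 50.6 CPM in CEN KO against 79.7, 59.3 and 55.4 CPM in CEN WT, again without overlap (-0.50 ± 0.18, adjusted p = 0.343, and -0.47 ± 0.21 without it). The serpin serpine3 had 1.61, 2.37 and 1.76 CPM in CEN KO against 1.21, 0.68 and 1.3 CPM in CEN WT (0.85 ± 0.31, adjusted p = 0.366, and 0.66 ± 0.34 without it).

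**Figure D5:**
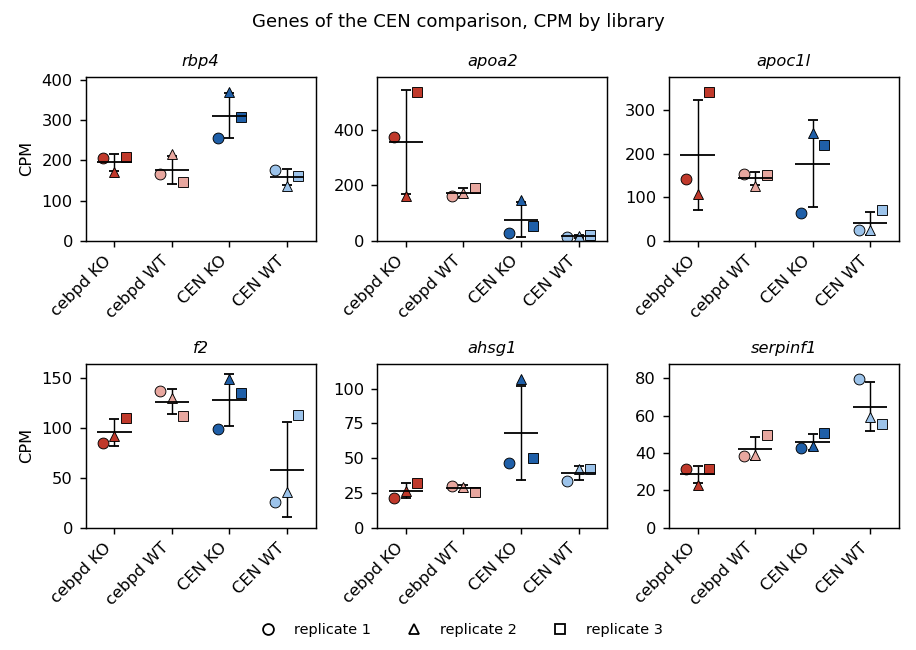
CPM of 6 genes named in the CEN comparison in each library, with the group mean (line) and SD (bar, n = 3) on axes that start at 0. The CEN KO points lie above all CEN WT points for rbp4, apoa2 and ahsg1 and below them for serpinf1, while f2 has 1 CEN WT point, at 113 CPM, among those of CEN KO.

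With all 12 libraries, the gene groups next to these proteins in function held no gene past edgeR's quasi-likelihood test in either knockout comparison, while the DESeq2 Wald test called 5 genes in cebpd KO (ldlra, lmf2a, cp, il6r and lect2l) and 3 in CEN KO (angptl4, lipg and gas6). Of 31 tested genes for lipoprotein receptors, lipases and assembly, 12 lay above 0 in cebpd KO (median -0.08) and 18 in CEN KO (median 0.04), or 16 (median 0.00) without CEN KO replicate 2. The lowest p belonged to lmf2a, a lipase maturation factor, in cebpd KO (1.16 ± 0.28, edgeR adjusted p = 0.106, and 0.0491 without cebpd KO replicate 3) and to angptl4, an inhibitor of lipoprotein lipase, in CEN KO. The level of angptl4 was 126, 165 and 159 CPM in CEN KO against 48.9, 60.6 and 52.6 CPM in CEN WT, without overlap (1.47 ± 0.23, edgeR adjusted p = 0.0966). Without CEN KO replicate 2 its log2 fold change was 1.40 ± 0.26 (edgeR, adjusted p = 0.178). Without cebpd WT replicate 2, which enters through the shared estimate of spread, its edgeR adjusted p was 0.0156. For angptl4 limma-voom also passed the threshold (adjusted p = 0.0487), as did edgeR on only the 6 CEN libraries (adjusted p = 0.0425). The next by p were the receptor gene ldlra in cebpd KO (-1.29 ± 0.40, adjusted p = 0.181) and the endothelial lipase gene lipg in CEN KO (2.63 ± 0.53, adjusted p = 0.140). The level of lipg was 10.5, 1.62 and 5.09 CPM in CEN KO against 0.824, 1.1 and 0.848 CPM in CEN WT, without overlap and lowest of the CEN KO libraries in replicate 2. Without that library its log2 fold change was 3.07 ± 0.34 and passed the test (edgeR, adjusted p = 0.0158).

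Of 11 tested genes that start or regulate complement, 7 lay above 0 in cebpd KO (median 0.24) and 2 in CEN KO (median -0.16, and -0.23 without CEN KO replicate 2). The lowest p belonged to the first-component subunit genes c1qb (0.43 ± 0.21, edgeR adjusted p = 0.410) and c1qa (0.47 ± 0.25, adjusted p = 0.455) in cebpd KO. Both genes also stand in the list of macrophage and monocyte markers, as does c1qc. That list summed to 2400, 2530 and 3440 CPM in cebpd KO against 1930, 2520 and 2490 CPM in cebpd WT. Of its 14 tested genes, 13 lay above 0 (median 0.45) and none passed, and its part in the complement values was not tested. In CEN KO it belonged to the protease gene c1s (-0.46 ± 0.20, adjusted p = 0.491, and -0.34 ± 0.22 without CEN KO replicate 2) and to clu (-0.89 ± 0.50, adjusted p = 0.599, and -0.87 ± 0.59 without it). Of 20 tested genes of coagulation and fibrinolysis, 13 lay above 0 in cebpd KO (median 0.13) and 7 in CEN KO (median -0.16), or 4 (median -0.25) without CEN KO replicate 2. Of these, s100a10b (0.63 ± 0.21, adjusted p = 0.198) and plaua (0.62 ± 0.31, adjusted p = 0.414) had the lowest p in cebpd KO. In CEN KO they were gas6 (-0.66 ± 0.14, adjusted p = 0.175, and -0.71 ± 0.17 without CEN KO replicate 2) and plaua, the urokinase gene (-1.14 ± 0.31, adjusted p = 0.236, and -1.35 ± 0.36 without it).

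Of 23 tested genes of the acute phase and its signalling, 14 lay above 0 in cebpd KO (median 0.10) and 12 in CEN KO (median 0.06), or 8 (median -0.19) without CEN KO replicate 2. The gene lect2l, a leukocyte chemotaxin relative, had 565, 552 and 717 CPM in cebpd KO against 221, 329 and 330 CPM in cebpd WT (1.06 ± 0.26, edgeR adjusted p = 0.103). The ceruloplasmin gene cp had 97.2, 84.7 and 85.1 CPM in cebpd KO against 35.1, 51.2 and 38.7 CPM in cebpd WT (1.09 ± 0.28, adjusted p = 0.118). Neither gene's groups overlapped. In CEN KO the lowest p belonged to gc, for the vitamin D-binding protein (1.25 ± 0.46, edgeR adjusted p = 0.385), and cp (-0.71 ± 0.28, adjusted p = 0.406). The level of gc was highest in CEN KO replicate 2, with 2.44, 6.77 and 2.3 CPM in CEN KO against 2.42, 0.784 and 1.64 CPM in CEN WT. Without that library the log2 fold change of gc was 0.56 ± 0.41 and that of cp -0.98 ± 0.29 (edgeR, adjusted p = 0.845 and 0.259).

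The effects of the knockouts were compared with each other by the difference of their log2 fold changes, cebpd minus CEN. None of the 51 genes passed (edgeR quasi-likelihood test), beside 0.0422% of all genes tested, and 9 (17.6%, against 12.9% of all genes) had an unadjusted p under 0.05. The DESeq2 Wald test called 3, c8g, cfh and serpinb1l4. The lowest p belonged to serpinb1l4, at -1.92 ± 0.45 (edgeR, adjusted p = 0.119), and cfh, at 0.89 ± 0.23 (adjusted p = 0.136). In CEN KO serpinb1l4 had 2.44, 2.61 and 4.31 CPM against 1.87, 1.88 and 1.87 CPM in CEN WT (0.73 ± 0.32, adjusted p = 0.484), all higher in CEN KO and so opposite in direction to cebpd KO. The differences for c8g and serpine3 were -2.96 ± 0.90 (adjusted p = 0.191) and -1.26 ± 0.42 (adjusted p = 0.230). The gene c8g had 7, 19 and 6 counts in CEN KO against 4, 3 and 5 counts in CEN WT, close to the floor. Those of rbp4 and c6 were -0.83 ± 0.26 (adjusted p = 0.194) and 0.90 ± 0.34 (adjusted p = 0.286). Without CEN KO replicate 2 the differences were -2.03 ± 0.49 for serpinb1l4, 0.84 ± 0.25 for cfh, -2.25 ± 0.93 for c8g, -1.07 ± 0.45 for serpine3, -0.69 ± 0.26 for rbp4 and 0.94 ± 0.38 for c6, and none passed. Without CEN WT replicate 3 the difference for f2 was -2.47 and passed (edgeR, adjusted p = 0.0239). In the gene groups next to these proteins in function, no difference passed edgeR's test with all 12 libraries. There the DESeq2 Wald test called angptl4, ldlra, lipg, lmf2a, gas6, plaua, cp and lect2l. Without CEN KO replicate 2 the difference for lipg was -3.52 ± 0.44 and passed (edgeR, adjusted p = 0.0353).

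Knockout and wild-type libraries did not overlap in both experiments, in the same direction, for 2 of the 51 genes (3.92%, against 1.56% of all genes). These were serpinf1 and serpinh1a, both lower in the knockouts. The level of serpinh1a was 23.6, 27.1 and 28.2 CPM in CEN KO against 31.5, 34.6 and 28.9 CPM in CEN WT (-0.27 ± 0.12, edgeR adjusted p = 0.504). They did not overlap in opposite directions for 4 genes (7.84%, against 1.97% of all genes), namely c8g, cfh, serpinb1l4 and serpine3. None of the 6 genes passed edgeR's quasi-likelihood test in either experiment, and the DESeq2 Wald test called serpinb1l4 in cebpd KO. The experiments have separate wild types, which differed from each other in c8g, serpinb1l4, serpine3 and serpinf1 (edgeR, values below).

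The wild types of the experiments differed from each other in many of these genes. In CEN WT compared with cebpd WT, 20 of 51 passed the test (39.2%, edgeR quasi-likelihood test), against 25% of all genes tested. There were 8 higher (15.7%, all genes: 10.9%) and 12 lower (23.5%, all genes: 14.1%) in CEN WT. Groups did not overlap for 27 genes (52.9%, against 46.4% of all genes). The labels give both groups the same strain, sex, age range and treatment, and whether fish stock, batch or handling differed is not stated, so genotype line and batch cannot be told apart in this comparison.

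The genes apoa2, apoc1l and apoeb, neighbours on chromosome 16, were all lower in CEN WT. The gene apoa2 had 11.5, 14.9 and 20.7 CPM in CEN WT against 160, 171 and 189 CPM in cebpd WT, a log2 fold change of -3.46 ± 0.59 (edgeR, adjusted p = 0.00201). That of apoeb was -2.26 ± 0.40 (adjusted p = 0.00247), and that of apoc1l -1.85 ± 0.57 (adjusted p = 0.0338). The gene apoa1a, on another chromosome, was lower as well (-1.65 ± 0.53, edgeR adjusted p = 0.0406), though its call held in only 10 of 18 alternative settings, and without CEN WT replicate 2 its edgeR adjusted p was 0.131, the highest of them. In contrast apobb.1, for the apolipoprotein B of very-low-density and low-density lipoproteins, was higher in CEN WT, with 16.9, 13.9 and 19.2 CPM against 3.99, 3.87 and 1.22 CPM in cebpd WT (2.46 ± 0.61, adjusted p = 0.0137).

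Complement genes went both ways in this comparison. The gene c8g had 4, 3 and 5 counts in CEN WT against 70, 112 and 108 counts in cebpd WT (-4.70 ± 0.67, edgeR adjusted p = 0.000881). Its partner c8a was higher, with 7.85, 13.8 and 16.5 CPM in CEN WT against 3.94, 4.5 and 5.12 CPM in cebpd WT (1.49 ± 0.33, adjusted p = 0.00755). Also higher in CEN WT were c6 (0.86 ± 0.24, adjusted p = 0.0235) and c3b.2 (2.82 ± 0.54, adjusted p = 0.00365), the second with 32, 36 and 20 counts in CEN WT against 6, 3 and 2 counts in cebpd WT. Another C3 gene, c3a.3, was lower (-1.26 ± 0.34, adjusted p = 0.0185). The copies of c3 are similar in sequence, so the split of reads between them is uncertain.

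Of the 19 tested serpins, 3 were called higher and 5 lower in CEN WT (all genes: 10.9% and 14.1%). Higher were serpine2, for protease nexin 1 (0.74 ± 0.13, edgeR adjusted p = 0.002), serpinh2 (0.82 ± 0.19, adjusted p = 0.00861) and serpinf1 (0.62 ± 0.18, adjusted p = 0.0256). Lower were serpine3 (-1.75 ± 0.30, adjusted p = 0.00217), serpinb1l3 (-0.97 ± 0.19, adjusted p = 0.00436), serpinb1l4 (-1.05 ± 0.32, adjusted p = 0.0322), and the heparin cofactor II gene serpind1 (-1.64 ± 0.35, adjusted p = 0.00657). The antiplasmin gene serpinf2b had 25.9, 37.4 and 40 CPM in CEN WT against 61.9, 84.2 and 56.4 CPM in cebpd WT (-0.97 ± 0.30, adjusted p = 0.033). By contrast serpina10a, the serpin with the second highest mean count, had 73.6 to 96.4 CPM in CEN WT and 58 to 78.3 CPM in cebpd WT, and its change did not pass (0.42 ± 0.16, adjusted p = 0.0703).

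Of the other plasma proteins, fabp10a was higher and fgb lower in CEN WT. The level of fabp10a was 277, 310 and 162 CPM in CEN WT against 61.8, 63.9 and 91.7 CPM in cebpd WT (1.79 ± 0.34, edgeR adjusted p = 0.00378). For fgb the values were 3.57, 4.34 and 4.35 CPM in CEN WT against 19.5, 33.7 and 26.8 CPM in cebpd WT (-2.70 ± 0.77, adjusted p = 0.0248). The level of rbp4 overlapped between the wild types (-0.15 ± 0.18). The gene f2 did not pass with all libraries. Its log2 fold change ran from -2.05 to -0.76 over 18 alternative settings, of which 4 called it, lower in CEN WT. Several differences between wild types were as large as or larger than those between knockout and wild type, for example a log2 fold change of -3.46 for apoa2 beside 1.04 in cebpd KO and 2.26 in CEN KO.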

How the data were processed

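The authors deposited 1 table of raw counts per gene symbol for each of the 12 libraries, not normalized. The submitters' processing notes name the build danRer10, TopHat2 2.1.1, HTSeq and Trim Galore 0.6.4. The annotation, and whether reads were assigned by strand, were not given in the sources used here, so reads of antisense genes and near-identical paralogs are uncertain. The 5 summary lines of each file were left out. In R 4.3.3, genes were kept by filterByExpr (minimum count 10), which left 11840, and scaled by TMM. All 12 libraries were fitted by edgeR 4.0.16 with 1 term per group (8 residual degrees of freedom) and its quasi-likelihood test, with Benjamini-Hochberg values over all genes tested and a threshold of 0.05. SE is that of the log2 fold change, taken as its absolute value divided by the square root of the quasi-likelihood F statistic, and is approximate. The code was tested on simulated data. Of the genes, 1 is counted but not reported by itself here. The genes, the lists of related genes and cell type markers and the rule for naming were chosen with earlier results of these data known. The rule named genes past the threshold (up to 15 per comparison), the 12 of lowest p in each knockout comparison, the 6 of lowest p in the other comparisons, the 3 with most counts per family, the 8 other plasma proteins, genes without overlap in both experiments, and of each list its called genes or the 2 of lowest p. Further genes are named as examples chosen after their values were seen. Symbols were matched to RefSeq GRCz12tu, 54 directly and 4 through a synonym, for names and gene order only. Alternatives were DESeq2 1.42.0 size factors and Wald test, limma 3.58.1 voom, no filter, only the 6 libraries compared, the replicate number as a block, and leaving out each library.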

Additional observations from a re-analysis of the deposited data

Results flagged for a closer look

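Knockout and wild-type libraries did not overlap in both experiments, but in opposite directions, for 4 genes. The difference of the log2 fold changes, cebpd minus CEN, was -2.96 for c8g, 0.89 for cfh, -1.92 for serpinb1l4 and -1.26 for serpine3, and none passed edgeR's quasi-likelihood test (adjusted p = 0.191, 0.136, 0.119 and 0.230). Without CEN KO replicate 2, the differences were -2.25, 0.84, -2.03 and -1.07, in the same order of genes. The wild types also differed from each other in c8g, serpinb1l4 and serpine3, each lower in CEN WT and past edgeR's test. The knockout effects on these genes are thus measured from unequal wild-type levels. Between the wild types cfh did not pass. With 3 libraries per group, single libraries were not checked for outlying values by a fixed criterion.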

How the results depend on the processing

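Of the values for the 51 genes tested under the alternatives, 3525 kept their side of the threshold, 41 lost a call, 24 gained one, and none reversed a call. Of the 20 calls between the wild types, 11 held in all 18 alternatives. That of apoa1a was lost in 8, those of apoc1l, c6, fgb, serpinb1l4 and serpinf2b in 5 each, that of c3a.3 in 4, that of serpinf1 in 3 and that of apobb.1 in 1. The counts of genes called were 10 for cebpd KO against cebpd WT, 1 for CEN KO against CEN WT, 5 for the difference of effects and 2961 between wild types, and among the 58 genes 0, 0, 0 and 20. Under the DESeq2 Wald test the first 3 became 406, 135 and 340, with 2, 3 and 3 among the 58. With limma-voom CEN KO had 5 and the difference 8. In fits on only the 6 libraries compared, the cebpd comparison had 1 and the CEN comparison 2. With the replicate number as a block, the counts were 6, 5, 0 and 3084, and 0, 0, 0 and 21 among the 58. Same-numbered libraries correlated from -0.01 to 0.37 (cebpd) and from -0.02 to 0.20 (CEN). In these experiments 3 of 6 and 4 of 6 libraries correlated best with their own number. These values do not settle whether the numbers pair the libraries. Leaving out each library gave 1 to 233 genes for cebpd (233 without cebpd KO replicate 3), 1 to 7 for CEN (7 without CEN WT replicate 3), 0 to 48 for the difference and 1630 to 4013 between wild types. Among the 58 genes it gave 0 for cebpd, 0 to 1 for CEN and for the difference (f2, without CEN WT replicate 3), and 13 to 23 between wild types, with 13 without cebpd WT replicate 1, CEN WT replicate 1 or CEN WT replicate 2. The causes were not tested. A group left with 2 libraries is assumed to vary like the others. Depth limits genes such as serping1 and ambp, which had counts of 0 in some libraries.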
